A study of Homo sapiens with 9 samples.

Results

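The regions described here are stretches of open chromatin that hold a full cAMP response element (CRE), the 8-bp palindrome TGACGTCA, close to a point of highest accessibility. They come from ATAC-seq, an assay that tags exposed DNA with a transposase, in HepG2, an established human liver cancer cell line. Cells were transfected with 50 nM siRNA for 72 hours, and the groups were NTG (a control siRNA), siINO80#1 and siINO80#2 (different siRNAs against INO80, the ATPase of a chromatin remodeling complex), with 3 replicates from independent transfections in each. All groups used the same line, and none of the values used here measures INO80 itself. Each group was represented by 1 deposited peak list for its 3 replicates, so there was no spread between replicates and no test between lists. The interval after each share below is a 95% Wilson interval that covers counting error only and treats regions as independent, although neighbouring regions are not.

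The intervals of the 3 lists were merged wherever they overlapped or touched, which gave 109960 regions on the autosomes. A region was a member if the palindrome lay whole within 100 bp of a summit, the position of strongest signal in a peak, of any list, and 592 regions met this rule. A region was called promoter if its strongest summit lay within 1 kb of an annotated start site, and distal otherwise. The rule found 429 of 21024 promoter regions (2.04%, 1.86 to 2.24) and 163 of 88936 distal regions (0.183%, 0.157 to 0.214). Of the 592, NTG held a peak in 528, siINO80#1 in 549 and siINO80#2 in 486. At the limit of the rule, 72 members had a palindrome 80 to 100 bp from a summit, and 41 further regions had one 100 to 120 bp away.

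The CRE is bound by the basic leucine zipper proteins of the CREB/ATF family, which dimerize over the palindrome so that each partner contacts 1 of its arms. Phosphorylation of CREB by protein kinase A, downstream of cAMP, recruits the coactivators CBP and p300, and in liver this pathway is known for switching on gluconeogenic genes during fasting. The central CG of the palindrome can be methylated, and methylation is known to reduce binding of CREB. AP-1, the dimer of FOS and JUN proteins, binds a closely related site that is 1 bp shorter.

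The following stretches of the GRCh37 plus strand, written 5′ to 3′, show the palindrome in capitals at promoters of genes long known as CREB/ATF targets. The last stretch is from CREB5, which was listed as a gene of the CREB/ATF family and not as a target. They are given because these genes are described below with their values in each list, and where an exon lay nearby only 30 bases are shown.
CCNA2, chr4:122745082-122745149: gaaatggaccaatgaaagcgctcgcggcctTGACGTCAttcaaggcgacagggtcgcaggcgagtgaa
FN1, chr2:216300956-216300985: cgggctccgggTGACGTCAcgggggactgt
NR4A2, chr2:157189333-157189400: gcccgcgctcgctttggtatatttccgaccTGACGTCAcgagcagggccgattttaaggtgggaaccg
DUSP1, chr5:172198286-172198353: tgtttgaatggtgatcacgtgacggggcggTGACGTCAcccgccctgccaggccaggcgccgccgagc
LDHA, chr11:18416029-18416096: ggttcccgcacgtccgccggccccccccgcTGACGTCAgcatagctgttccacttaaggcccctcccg
CYCS, chr7:25165127-25165194: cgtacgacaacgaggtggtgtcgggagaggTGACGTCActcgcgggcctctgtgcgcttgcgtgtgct
PRKAR1A, chr17:66508511-66508540: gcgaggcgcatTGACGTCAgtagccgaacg
VGF, chr7:100808892-100808959: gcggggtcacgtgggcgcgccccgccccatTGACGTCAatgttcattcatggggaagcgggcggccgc
CREB5, chr7:28448916-28448945: ggaatcccacgTGACGTCAccgggggggtg

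Distal members are shown next, one group found in all 3 lists (LINC02628, RPL3P6), one found with both INO80 siRNAs and not with NTG (LINC00598, B3GNT5) and one found with NTG only (GLB1L3, BACE2), each named by the nearest start site. The palindrome is again in capitals on the plus strand of GRCh37.
LINC02628, chr10:33798406-33798473: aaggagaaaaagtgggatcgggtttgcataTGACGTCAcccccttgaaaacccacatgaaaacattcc
RPL3P6, chr5:60704639-60704706: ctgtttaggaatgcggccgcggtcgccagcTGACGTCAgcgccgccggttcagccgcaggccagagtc
LINC00598, chr13:40690355-40690422: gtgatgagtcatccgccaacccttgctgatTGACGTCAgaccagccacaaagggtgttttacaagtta
B3GNT5, chr3:183003782-183003849: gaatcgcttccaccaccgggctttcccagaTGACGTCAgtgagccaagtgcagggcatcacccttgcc
GLB1L3, chr11:134142486-134142553: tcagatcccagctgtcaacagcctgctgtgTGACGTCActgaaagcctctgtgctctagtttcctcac
BACE2, chr21:42600062-42600129: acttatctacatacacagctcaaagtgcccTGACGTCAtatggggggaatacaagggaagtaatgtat

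The palindrome was rare in the genome, and how often it was found open varied with where it lay. The autosomes held 9881 copies, of which 608 (6.15%, 5.70 to 6.64) were within 100 bp of a summit of any list. Of the 747 copies less than 100 bp from a start site, 331 (44.3%, 40.8 to 47.9) were open in this sense. The share was 27.2% (22.3 to 32.7) from 100 to 250 bp, 8.97% (6.24 to 12.7) from 250 to 500 bp and 2.36% (1.29 to 4.30) from 500 to 1000 bp. Farther away it levelled off, at 2.09% (1.67 to 2.60) from 1000 to 10000 bp and 1.98% (1.61 to 2.43) beyond 10000 bp. The AP-1 site (TGACTCA on one strand, TGAGTCA on the other) followed another course, with 16.7% (15.6 to 17.8) open within 100 bp of a start site and 3.79% (3.72 to 3.87) beyond 10000 bp. The E-box CACGTG, which also has a CG at its centre, was open in 20.9% (19.8 to 22.0) and 1.31% (1.25 to 1.37), respectively. Thus close to start sites the CRE was open more often than either comparator, and beyond 10000 bp it was open less often than AP-1. Methylation was not measured here.

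**Figure D1:**
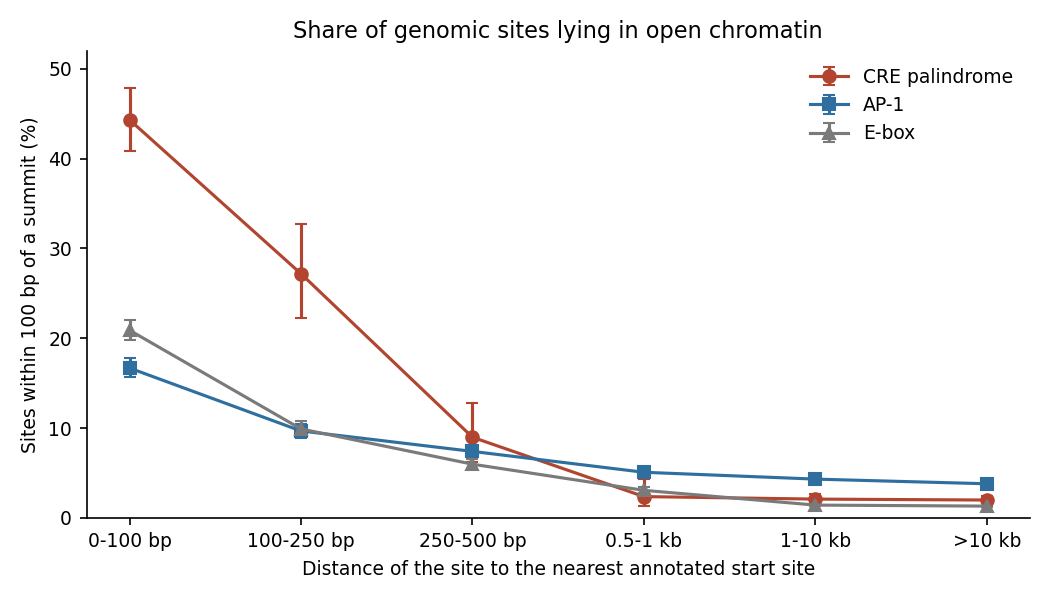
Share of all autosomal copies of a site that lie within 100 bp of a summit of any list (y axis, percent), by distance to the nearest annotated start site (x axis, 6 classes), for the CRE palindrome, the AP-1 site and the E-box. Bars are 95% Wilson intervals; the CRE share is 44.3% in the class nearest to start sites and 1.98% beyond 10 kb.

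In promoter members the palindrome sat just upstream of the start site. Its centre lay a median of 53.5 bp upstream (interquartile range 106.5 to 8.5 bp upstream), 346 of 429 were on the upstream side (80.7%) and 227 were in the first 100 bp upstream. By annotation, 157 of these palindromes were intergenic, 126 in untranslated exons of protein-coding genes, 101 in introns, 39 in exons of non-coding genes and 6 in coding exons. The nearest start site belonged to a protein-coding gene in 82.5% (78.6 to 85.8) of promoter members, against 70.4% of all promoter regions. Start sites of protein-coding genes on both strands within 1 kb were found for 54 promoter members (12.6%, 9.78 to 16.1) and for 7.37% of all promoter regions. Of the distal palindromes, 88 lay in introns, 67 were intergenic, 4 were in untranslated exons, 3 in exons of non-coding genes and 1 in a coding exon. In both kinds of region the palindrome was close to a summit, at a median distance of 31.5 bp in promoter and 29.5 bp in distal members, within the limit of 100 bp that the rule set.

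**Figure D2:**
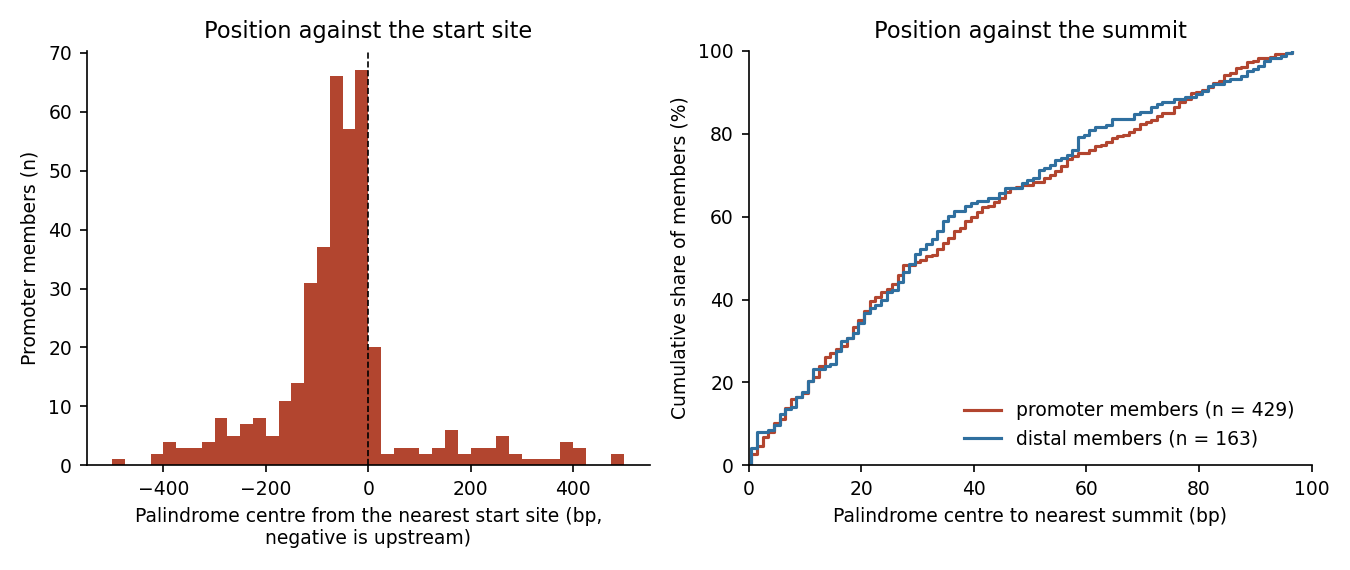
Left, number of promoter members by the position of the palindrome's centre against the nearest start site (bp, negative is upstream, bins of 25 bp; 399 of 429 lie in the range drawn). Right, cumulative share of promoter and distal members (percent) by distance from the palindrome to the nearest summit (bp); the curves lie close together, with medians of 31.5 and 29.5 bp.

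The bases beside the palindrome also differed between open and closed copies. Reading both strands, the base before the palindrome was G in 49.5% (46.2 to 52.9) of promoter members, 31.3% (26.5 to 36.5) of distal members and 19.2% (18.6 to 19.7) of the 9273 copies that lay near no summit. This gives GTGACGTCAC where G precedes it on both strands, which was the case for 111 of 429 promoter members (25.9%, 22.0 to 30.2), 24 of 163 distal members (14.7%, 10.1 to 21.0) and 5.08% (4.65 to 5.55) of closed copies. The stretches of FN1, DUSP1, CYCS and CREB5 printed above have this longer form, and so has that of GLB1L3 among the distal ones. T came before the palindrome in 6.18% (4.75 to 7.99) of promoter members and in 20.4% of closed copies. The 200 bp at the strongest summit had a median GC content of 66.5% in promoter members and 60% in all promoter regions, and the part of base composition in the flanking bases was not tested.

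Other sites were searched in the 200 bp around the strongest summit, on both strands. The SP1/KLF site GGGCGG occurred in 57.1% (52.4 to 61.7) of promoter members and in 37.9% of all promoter regions. A further TGACG outside the palindrome, the single arm of a CRE that some targets carry, occurred in 30.1% (25.9 to 34.6) against 17.4%. The ETS site CCGGAAG occurred in 13.3% (10.4 to 16.8) against 8.51%, and NRF1's GCGCATGC in 3.96% (2.49 to 6.25) against 1.95%. Other sites were rarer in promoter members, namely AP-1 with 3.73% (2.31 to 5.97) against 7.10% and FOXA's TGTTTAC with 1.17% (0.499 to 2.70) against 2.73%. The CEBP sites (TTGCGCAA, TTGCACAA or TTGCATAA) had 0.466% (0.128 to 1.68) against 1.15%, and HNF4A's CAAAGTCCA 0.699% (0.238 to 2.04) against 0.590%. Both of these intervals cover the value of all promoter regions. In distal members AP-1 was present in 16.6% (11.6 to 23.03) against 13.0% of all distal regions, GGGCGG in 14.7% (10.1 to 21.0) against 3.88% and the single TGACG in 12.9% (8.58 to 18.9) against 6.71%. The liver-factor sites of FOXA, HNF4A (CAAAGTCCA) and CEBP were found in 10, 2 and 1 of the 163 distal members. Their shares were 6.13% (3.37 to 10.9), 1.23% (0.337 to 4.36) and 0.613% (0.108 to 3.39), against 5.48%, 0.843% and 1.94% of all distal regions. These matches describe the sequence and do not show binding.

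Promoter members were among the stronger peaks. Fold enrichment is the peak caller's ratio of reads at the summit to the local background, and its percentile is the share of intervals in the same list with a lower value. The median percentile of promoter members was 80.9 in NTG, 80.2 in siINO80#1 and 77.5 in siINO80#2, and that of all promoter regions was 69.4, 67.7 and 66.8. Promoter regions with an ETS or NRF1 site and no CRE were as high, with medians of 82.2 and 82.0 in NTG. Distal members had medians of 64.9, 63.7 and 59.5, and all distal regions of 45.2, 45.2 and 45.1. Members were also wider and had more summits. Promoter members had medians of 916 bp and 6 summits, against 554.5 bp and 3 for all promoter regions. Distal members had 502 bp and 3 summits, against 271 bp and 1 for all distal regions. The part of this in the percentiles was not tested. The whole numbers of reads at the summit, solved from the deposited fold enrichment and p, had medians of 41, 49.5 and 43 in promoter members and 29, 35 and 32 in distal members, in the same order of lists. The number of sequenced reads behind each list is unknown.

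To ask whether CRE regions differed between the control and the INO80 siRNAs, each region was classed by the lists that held it. In promoter members 365 of 429 (85.1%, 81.4 to 88.1) had a peak in all 3 lists, whereas the background over all promoter regions was 54.1%. Only 4 (0.932%, 0.363 to 2.37) were in NTG alone, against 14.6% of all promoter regions. Peaks with both INO80 siRNAs but not with NTG were found in 7 (1.63%, 0.793 to 3.33), against 3.08%. At a −log10 q of at least 5 this share was 3.76%, against 3.34% of all promoter regions, so that its direction against the background turned, and that of NTG alone was 2.6%, against 9.54%. In distal members 85 of 163 (52.1%, 44.5 to 59.7) were in all 3 lists, against 20.2% of all distal regions. A further 22 (13.5%, 9.08 to 19.6) were in NTG alone, against 26.8%, and 12 (7.36%, 4.26 to 12.4) had peaks with both INO80 siRNAs but not with NTG, against 5.67%. The last of these shares was near its background. At the stricter q, 79.5% of promoter members were in all 3 lists, against 62.7% of all promoter regions. Of distal members 49% were, against 35% of all distal regions, and 12.5% were in NTG alone, against 18.7%. The classes of both siRNAs rest on the same NTG list.

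**Figure D3:**
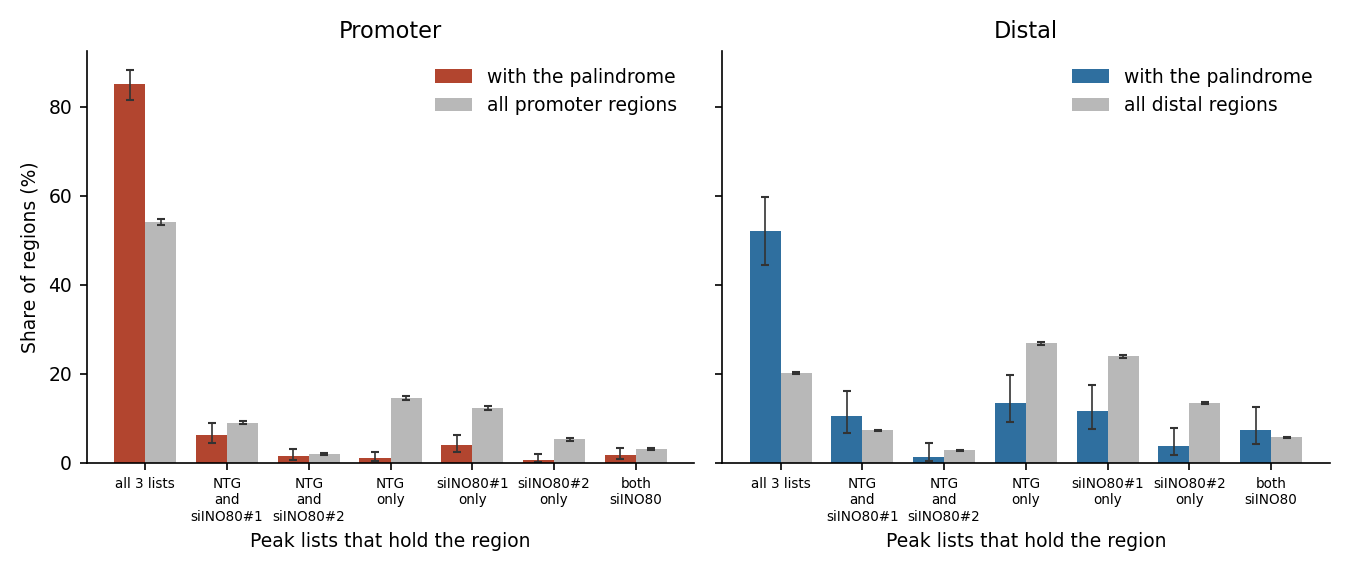
Share of regions (y axis, percent) by the peak lists that hold them (x axis), for promoter regions (left) and distal regions (right), with the palindrome (coloured) and overall (grey). Bars are 95% Wilson intervals; regions in all 3 lists make up 85.1% of promoter members and 52.1% of distal members, against 54.1% and 20.2% overall.

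The rule itself bears on these shares. A region found in several lists has more summits, and so more sequence was searched for the palindrome. When the strongest summit of each region alone was searched, 82.2% of 241 promoter members and 43.0% of 121 distal members were in all 3 lists, with the same background. With every summit searched, promoter members exceeded the other promoter regions by 31.6 percentage points in this share (27.9 to 34.8, Newcombe interval). Distal members exceeded the other distal regions by 32.0 points (24.4 to 39.5), and both values are without the stricter q. The excess at promoters was shared with other sites. Promoter regions with an ETS site and no CRE were in all 3 lists in 84.8% of cases and those with an NRF1 site in 86.1%, close to the CRE value. Distal regions with an AP-1 site and no CRE were in all 3 lists in 41.3% of cases. Distal members exceeded these by 10.9 points (3.20 to 18.4), less than they exceeded the other distal regions.

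Taking NTG as the start, 392 of the 402 promoter members with an NTG peak (97.5%, 95.5 to 98.6) also had a siINO80#1 peak, and 371 (92.3%, 89.3 to 94.5) had a siINO80#2 peak. The remaining 10 and 31 compare with a background of 20.6% and 29.6% of all promoter regions with an NTG peak. Among the 126 distal members with an NTG peak, 102 (81.0%, 73.2 to 86.9) had a siINO80#1 peak and 87 (69.0%, 60.5 to 76.5) a siINO80#2 peak. Here 24 and 39 had none, against a background of 51.9% and 59.7%. Other sites gave like values, as 79.6% and 74.0% of distal AP-1 regions without the CRE had a siINO80#1 and a siINO80#2 peak, 96.3% and 89.9% of promoter ETS regions and 97.98% and 90.9% of promoter NRF1 regions. Since members were stronger than other regions, the other regions were also averaged with the weights that members had over 10 classes of NTG fold enrichment. Their shares were then 87.0% and 80.1% for promoter regions and 63.7% and 54.8% for distal regions. Regions with peaks in several lists also had more summits searched by the rule, and the part of this in the members' shares was not tested. The smaller number of peaks in siINO80#2 (53113, against 69730 in NTG and 69333 in siINO80#1) goes with its lower shares, and the part this played was not tested.

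Regions in all 3 lists were then ranked by fold enrichment within each list, from 0 to 100 among those regions, and the rank in NTG was subtracted from that with each siRNA. For the 365 promoter members the median difference was 1.57 points with siINO80#1 (interquartile range -5.22 to 8.82) and 0.864 points with siINO80#2 (-7.30 to 8.97). For all promoter regions it was -0.627 and -1.17 points. For the 85 distal members it was -1.97 points (-11.6 to 9.81) and -1.81 points (-15.7 to 11.8), against 0.118 and 0.750 points for all distal regions. The difference was above 0 in 206 promoter members with siINO80#1 (56.4%, 51.3 to 61.4) and in 196 with siINO80#2 (53.7%, 48.6 to 58.7), against 47.0% and 45.2% of all promoter regions. In distal members it was above 0 in 37 (43.5%, 33.5 to 54.1) and 40 (47.1%, 36.8 to 57.6), against 50.5% and 52.03% of all distal regions. Distal regions with neither a CRE nor an AP-1 site had medians of -2.11 and -2.23 points, near those of distal members. In these regions the difference was above 0 in 44.4% and 45.0%. Distal regions with an AP-1 site and no CRE had higher medians, 6.43 points (-5.92 to 21.2) and 8.68 points (-4.11 to 26.4). Of all 13684 such regions, whichever list held them, 14.1% had peaks with both INO80 siRNAs but not with NTG, and the share of distal CRE regions minus this one was -6.74 points (-9.90 to -1.65). Of the 37 distal members that had an AP-1 site near a summit as well, 5 (13.5%, 5.91 to 27.98) were in this class. Of the 126 distal members without one, 7 (5.56%, 2.72 to 11.02) were. These intervals overlap, and the difference was not tested.

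**Figure D4:**
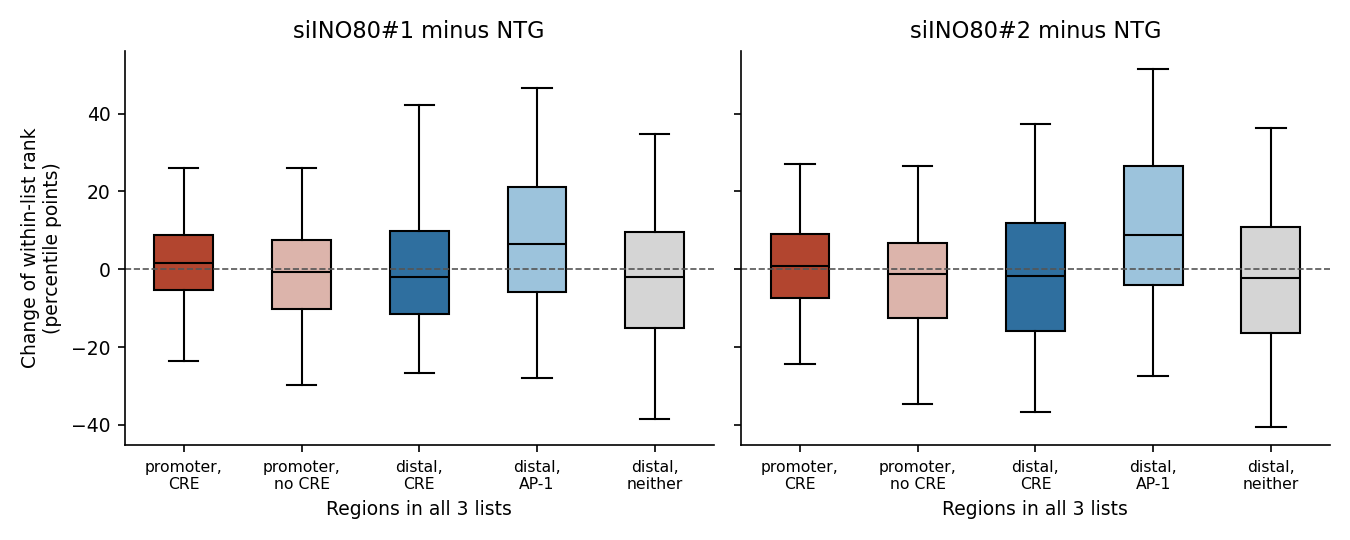
Difference in within-list rank (percentile points, y axis) between each INO80 siRNA and NTG for regions found in all 3 lists, by site. The line is the median, the box the quartiles and the whiskers the 5th and 95th percentiles over regions; the median of distal AP-1 regions is 6.43 and 8.68 points and those of CRE regions lie between -1.97 and 1.57 points. Both panels share the NTG list.

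The place of the strongest summit against the palindrome also differed between lists. For this, regions in all 3 lists were taken whose shared part held exactly 1 palindrome, a choice that uses no summit. Among 349 such promoter regions the strongest summit lay within 100 bp of the palindrome in 151 with NTG (43.3%, 38.2 to 48.5), in 195 with siINO80#1 (55.9%, 50.6 to 61.0) and in 180 with siINO80#2 (51.6%, 46.3 to 56.8). The median distance was 110.5 bp with NTG, 84.5 bp with siINO80#1 and 89.5 bp with siINO80#2. Region by region, 72 were within 100 bp with siINO80#1 and not with NTG, and 28 the reverse. With siINO80#2 these numbers were 67 and 38. In 75 distal regions the share was 56.0% (44.7 to 66.7) with NTG, 65.3% (54.1 to 75.1) with siINO80#1 and 68.0% (56.8 to 77.5) with siINO80#2. Here 15 were within 100 bp with siINO80#1 and not with NTG, and 8 the reverse. With siINO80#2 the numbers were 16 and 7. The intervals, at promoters too, do not use the pairing of the same regions across lists.

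Promoter regions with 1 ETS site gave nearly equal shares in the 3 lists, 48.3%, 49.5% and 48.5% of 1927. NRF1 lay between, with 39.5%, 47.0% and 43.8% of 377 promoter regions. Distal AP-1 sites, at 69.4%, 75.7% and 74.3% of 3904 regions, also had the strongest summit nearby more often with the INO80 siRNAs. Promoter AP-1 regions had 42.6%, 46.9% and 44.4%. The shares varied little at the E-box, with 35.9%, 38.1% and 35.7% at promoters and 47.1%, 47.6% and 48.6% in distal regions. Distal ETS regions had 55.0%, 55.0% and 53.4%, and distal NRF1 regions 57.0%, 54.7% and 61.6%. A difference of this kind was therefore seen at some other sites and not at all of them. Reads at the summit were also more numerous in the siINO80#1 list, as given above, and their part in the summit positions was not tested.

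**Figure D5:**
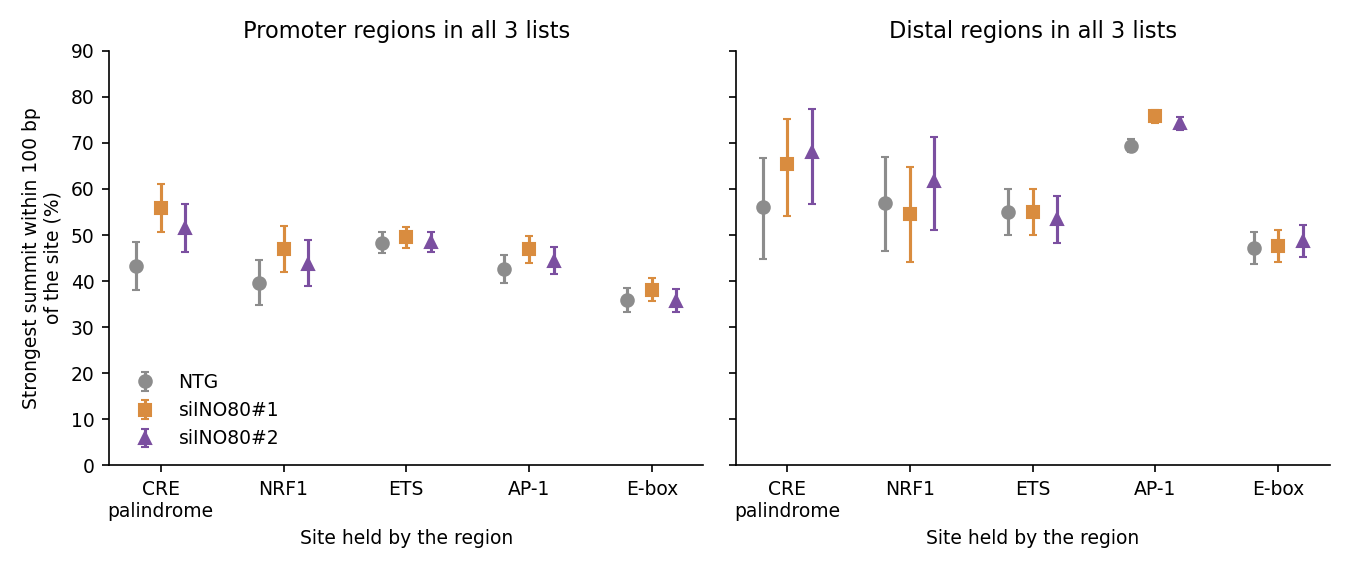
Share of regions in all 3 lists (y axis, percent) whose strongest summit lies within 100 bp of the 1 site they hold, by site (x axis) and peak list, for promoter (left) and distal (right) regions. Bars are 95% Wilson intervals; for the CRE at promoters the values are 43.3% (NTG), 55.9% (siINO80#1) and 51.6% (siINO80#2).

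Of the 44 textbook CREB/ATF target genes listed for this work, 20 had a palindrome within 1 kb of a start site and 10 had a member region there. These counts were not set against all genes. Cyclin A2 (CCNA2), which drives S phase and mitotic entry, had a fold enrichment of 9.12 in NTG, 10.0 in siINO80#1 and 6.62 in siINO80#2, from 75, 89 and 59 reads at the summit. CYCS, the electron carrier cytochrome c, had 7.71, 10.4 and 7.89, from 63, 120 and 79 reads. FN1, the matrix protein fibronectin, had 6.37, 6.12 and 4.58, and PRKAR1A, a regulatory subunit of protein kinase A, had 6.06, 6.51 and 6.05. These promoters were open in every list.

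POLB, the polymerase of base excision repair, had a fold enrichment of 6.23, 5.36 and 4.10. The early response gene DUSP1, a phosphatase of MAP kinases, was at 4.35 in NTG, 2.85 in siINO80#1 and 3.16 in siINO80#2, and its rank among the shared regions differed from NTG by -27.4 and -11.05 points. NR4A2, an orphan nuclear receptor induced by cAMP, had 3.73, 3.36 and 2.72. LDHA, the lactate dehydrogenase of glycolysis, had 3.02, 3.11 and 4.33, with 31, 39 and 54 reads, and ranked 5.71 and 45.3 points higher. With 1 list per group none of these differences could be set against replicate error.

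PCK1, the gluconeogenic phosphoenolpyruvate carboxykinase, was the one target whose member region was listed with NTG alone. The peak was weak, with a fold enrichment of 2.70, 31 reads and percentile 21.3. The neuroendocrine gene VGF was listed with siINO80#1 alone, at a fold enrichment of 2.15, 23 reads and percentile 2.58. In PPARGC1A, PER2, FOSB and CRH a peak was present within 1 kb but the palindrome was not within 100 bp of a summit. In SIK1, SST, CGA, TH, CHGA and AREG, most of them genes of endocrine or neural cells, the promoter held the palindrome and no list had a peak within 1 kb. As a check of the cell line, the liver genes TTR, APOA2, SERPINA1, HNF4A and FOXA2 had a peak within 1 kb in every list, ALB in NTG and siINO80#1 and AFP in NTG alone. Of 6 genes of other cell types, 1 had a peak with NTG, 1 with siINO80#1 and 0 with siINO80#2.

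Of 26 genes of the CREB/ATF family and its coactivators, 20 had a peak within 1 kb in NTG, 21 in siINO80#1 and 20 in siINO80#2, and 4 carried the palindrome there (CREM, ATF3, CREB3L2 and CREB5). Of these 4 genes, 2 had a member region, and the counts of this list were not set against all genes either. The palindrome of CREB3L2, an endoplasmic reticulum-bound family member, lay between its start site and that of AKR1D1, a reductase of bile acid synthesis, in a strong peak of fold enrichment 11.6, 10.4 and 7.41. CREB5 had a palindrome 23.5 bp upstream of an internal start site, in a region listed with siINO80#1 (4.08, 32 reads) and siINO80#2 (3.31, 25 reads) and not with NTG. The siINO80#1 peak held the palindrome, whereas the siINO80#2 peak ended before it. Another start site of CREB5 had a peak in all 3 lists. CREM, which encodes cAMP-responsive activators and the repressor ICER, had a palindrome 9.5 bp from a start site but not within 100 bp of a summit.

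The strongest promoter members in all 3 lists, by the lowest of their percentiles, were STARD3NL, LARS1 (leucyl-tRNA synthetase), EXO1 (an exonuclease of mismatch repair), PACRGL and the lncRNA ENSG00000291202. Their fold enrichment was between 12.1 and 14.2 in NTG, between 11.7 and 13.9 in siINO80#1 and between 11.4 and 11.8 in siINO80#2, and the lowest percentile was 99.1. Against the start site, the palindrome was at 2.5 bp in STARD3NL and at -111.5 bp, thus upstream, in LARS1. The strongest distal members in all 3 lists lay near RPL3P6, LINC02628, EEPD1, DST and ENSG00000261144. Near RPL3P6 fold enrichment was 8.15 in NTG, 11.9 in siINO80#1 and 10.8 in siINO80#2, from 44, 89 and 71 reads. In the intron of DST, the gene of the cytoskeletal linker dystonin, it was 7.95, 7.43 and 6.63.

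The promoter members with peaks under both INO80 siRNAs but not NTG were those of FRAT1 (an inhibitor of GSK3), MPZL3, CREB5, HAUS5, CSNK1D (a kinase of the circadian clock) and the lncRNAs ENSG00000289119 and ENSG00000289110. FRAT1 had a fold enrichment of 4.11 with siINO80#1 and 3.17 with siINO80#2, and MPZL3 3.25 and 3.79. Among the distal ones, the intronic region near LINC00598 was highest by the lower of its percentiles, with a fold enrichment of 5.20 and 4.89 from 31 and 30 reads, and the stretch printed above also holds an AP-1 site. An intronic region near ENSG00000247345 had 6.01 and 4.26, from 36 and 26 reads. The region near B3GNT5, a glycosyltransferase gene, had 3.90 and 4.58. The promoter members with an NTG peak alone were those of ZNG1B, ODF3L1, PCK1 and SWI5. ZNG1B was at a fold enrichment of 6.64 and 31 reads, in a short peak that ended before the palindrome. The 30 bp around its palindrome occurred 2 times on the autosomes. SWI5, a recombination gene, was at 2.36 and 15 reads. The distal ones of highest percentile lay near ENSG00000251410, ENSG00000286099, GLB1L3 and BACE2, at 4.15, 3.85, 3.83 and 3.42.

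Some members in all 3 lists differed most in rank with both siRNAs, and these were chosen after their values were seen. The promoter of UBAP1, a subunit of the ESCRT-I sorting complex, had a fold enrichment of 3.79 in NTG, 7.81 in siINO80#1 and 5.14 in siINO80#2, from 20, 56 and 37 reads. An intronic distal region near ANKRD44-IT1 had 4.48, 7.998 and 9.51, from 27, 76 and 89 reads. In the other direction, the promoter of ISL2, a LIM homeodomain gene, had 5.95, 2.89 and 2.81, and that of ACTR3B, an actin-related protein, 6.32, 3.33 and 2.92. An intronic distal region near the lncRNA ENSG00000228496 had 6.65, 3.08 and 2.59, from 80, 50 and 40 reads. Here the strongest peaks of NTG and siINO80#2, and in ACTR3B that of siINO80#2, did not reach the palindrome. For these regions both siINO80 lists lay on the same side of NTG, which is how they were picked.

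The share of regions that were members varied between chromosomes. Chromosome 2 held 21540 of all regions, the most of any autosome, and 48 members (0.223% of its regions), whereas chromosome 19 held 1320 regions and 26 members (1.97%). The 48 members compare with 785 palindromes on chromosome 2 and the 26 with 425 on chromosome 19. Promoter members were 21 of the 48 and 24 of the 26. HepG2 is known to carry extra copies of some chromosomes, and the part of copy number in these counts was not tested. Exact copies of the 30 bp around the palindrome were rare among members. These 30 bp occurred more than 1 time on the autosomes for 4 promoter members and for 4 distal members, with up to 52 copies in the latter. Of all palindromes this held for 1385 (14.0%). Copies that differ in any base were not counted, so the share of members in repeats is not known.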

How the data were processed

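ATAC-seq was performed on 9 HepG2 samples, and the authors deposited 1 peak list for each of the 3 groups. The submitters' processing notes name Trim Galore 0.4.1, Bowtie2, SAMtools, MACS2, deepTools 2.2.4 and build hg19. How replicates were combined and whether reads were shifted for the transposase are not given in the sources used here. The deposited values are a fold enrichment (a ratio to local background), and p and q as −log10 values per the file format, with no −log10 q under 1.30.

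Lists were merged at 0 bp, start sites were taken from GENCODE 44 lifted to GRCh37, and sequences were read from GRCh37. Summit reads were solved from fold enrichment and p by the formulas of MACS2, with an error of at most 0.000246 in −log10 p. Merging, palindrome search and read solving were tested on known or simulated data. The members and gene lists were chosen with earlier results of these data known, and the summit positions were examined after the classes had been seen. Named regions were the 5 strongest per site in all 3 lists, up to 4 per site in both siINO80 lists or in NTG only, and those of the gene lists. Of the liver markers 1 gene, and of the selected stretches 1 sequence, are not reported here. Python 3.11.15, pandas 2.3.3, numpy 2.4.6, SciPy 1.17.1, pysam 0.24.0, matplotlib 3.10.9 and bedtools 2.31.1 were used.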

Additional observations from a re-analysis of the deposited data

How the results depend on the processing

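Of 64 values, 8 results under 8 alternatives each, 44 stayed within the interval of the value reported and 20 did not. This count compares the values themselves only, and the background also moved with some settings. The share of promoter regions with the palindrome was 1.37% with 50 bp to a summit, 2.36% with 150 bp, 1.15% with the strongest summit alone, 2.61% at a −log10 q of at least 5, 2.28% at equal list sizes, 1.57% with promoters to 2.5 kb and 2.45% with start sites of protein-coding genes. The share of distal regions was 0.123% with 50 bp, 0.226% with 150 bp, 0.136% with the strongest summit alone, 0.335% at the stricter q and 0.214% at equal list sizes. Promoter CRE regions in all 3 lists made up 79.5% at the stricter q and 74.6% when a list counted only with a summit within 150 bp of the strongest, against 62.7% and 47.6% of all promoter regions. Distal CRE regions in all 3 lists made up 43% with the strongest summit alone. At the stricter q they made up 49%, within the interval, but the share of all distal regions was 35%, against 20.2% without it. Promoter CRE regions in NTG only made up 0.348% with 50 bp and 2.6% at the stricter q. Those with peaks under both INO80 siRNAs but not NTG made up 0.697% with 50 bp, 3.76% at the stricter q and 3.67% at equal list sizes, where all promoter regions gave 3.34% and 4.32% for the latter pair. The cause of these shifts was not tested. No paired analysis was possible because each group had 1 list, and for the same reason no replicate could be left out. Reads per list are unknown, so absence from a list says only that no peak was called there.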
